A study of Mus musculus with 67 samples.

Results

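The retina 6 hours into the experiment, the 6h group, was compared with the retina of the NB group by RNA-seq in photosensitive mice that lack Abca4 and Rdh8. Members were chosen by sample label: 3 libraries labelled 6h and 6 labelled NB, which are 9 of the 17 retina RNA libraries and 9 of the 67 samples of the series. All groups share the genotype Abca4-/- Rdh8-/- on a C57BL/6J background, so the NB libraries are mutant controls and not wild type. The labels do not explain the abbreviation NB, nor the event from which the hours count, and ages are not given in the sources used here. Each library held RNA from the retinas of both eyes of 1 mouse, lifted from the eyecup after the front of the eye had been cut away and kept in RNAlater. The libraries were made with a stranded mRNA kit. Retinas labelled 1d and 3d (4 libraries each) served only to place the 6h values in time.

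Abca4 and Rdh8 clear all-trans-retinal from photoreceptor outer segments, the first by moving it across the disc membrane and the second by reducing it to retinol, and eyes without them are known to be harmed by bright light. In an injured retina, photoreceptors and microglia release signals, and Muller glia, which span the whole tissue, answer through cytokine receptors of the gp130 family, through the JAK kinases and STAT3 below them, and through AP-1 and NF-kappaB. LIF made by Muller glia is known in the mouse to protect photoreceptors from light. Rods hold most of the RNA of a mouse retina, so their outer segment transcripts dominate a bulk library.

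Reads recovered from the deposited values totalled 22.6 to 32.4 M in a deeper set of 5 libraries (the 3 of 6h and 2 of NB, here A1 and A2) and 9.45 to 15.2 M in a shallower set of 12 (the other 4 of NB, B1 to B4, and all of 1d and 3d). The NB libraries of the 2 depth sets differed in 227 genes, 1.34% of those tested, and calls against A1 and A2 alone are given for lists and genes where they differed most. That count ran from 71 to 316 when 1 of B1 to B4 was left out, and DESeq2 gave 728. Without A1 or A2 only 1 library is left in that set, so such a fit cannot show what the count owes to either. Abca4, the transporter gene named in the genotype, was read at 459, 476 and 459.7 CPM (reads of the gene scaled to the authors' effective library size) at 6h and at 696 to 928 CPM (median 767) in NB. Rdh8, the retinol dehydrogenase gene, was read at 37.6, 44.6 and 49.0 CPM and 32.2 to 49.0 CPM (median 38.6). A count over a whole gene does not show whether its deletion is present. Rod markers summed to 58551 to 65517 CPM in NB, the largest sum of any cell type list, none of the 10 T and B cell markers was tested and 1 of 11 neutrophil markers was. Lens markers set the libraries apart: their sum was 6772, 455 and 16551 CPM in the 3 libraries of 6h, 296 in NB A2 and 4094 to 9250 in the other NB libraries.

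Against NB, 5991 of 16926 genes passed the test at 6h, which is 35.4% of those tested. Of these, 2854 were higher (16.9%) and 3137 were lower (18.5%). Counts of list members below are to be read beside these shares, which some lists do not exceed by much. Large changes were mostly gains: 292 genes rose and 163 fell by at least 2-fold. The 3 libraries of 6h and the 6 of NB did not overlap in 5857 genes (34.6%). Over the 292 large rises, the median log2 distance of each library from the NB mean was 1.46, 1.33 and 1.44, and over the 163 large falls it was -1.29, -1.17 and -1.26. The second library was nearest to NB in both directions. The median coefficient of variation within 6h was 4.53% over 10780 genes of at least 10 CPM, and 7.48% over the 154 of them that rose 2-fold or more. The log2 fold changes below are 6h minus NB on the scale of log2(CPM + 0.5), with SE, which understates changes of genes near 0. Both groups are samples from different mice, with n = 3 and n = 6.

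**Figure D1:**
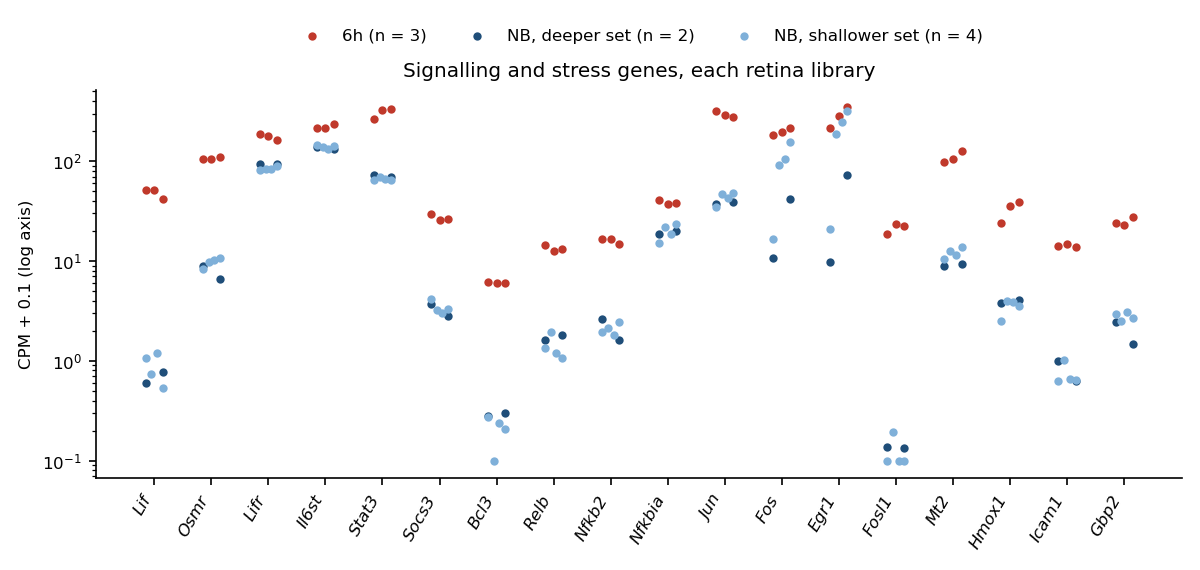
CPM plus 0.1 of 18 signalling and stress genes on a log axis, with 1 point for each retina library: red for 6h (n = 3), dark blue for the NB libraries of the deeper set (n = 2) and light blue for those of the shallower set (n = 4). The red points of Lif, Stat3, Relb, Jun and Mt2 lie above all NB points, whereas those of Egr1 (214 to 345 CPM) overlap NB libraries that reach 315 CPM.

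Promoter windows of 8 genes that rose are shown here because they come from the cytokine, NF-kappaB, interferon, mRNA decay and chaperone groups described next, and each holds at least 1 motif of the factors whose genes rose with them. Each window is 300 bases, from 250 before to 50 after the annotated start, from RefSeq on GRCm38.p6, written 5′ to 3′ on the gene's strand. Capitals mark matches on either strand to the AP-1 motif TGANTCA, the STAT motif TTCNNNGAA, the NF-kappaB motif or the CArG box. The windows lie at chr11:4257318-4257617 for Lif (plus strand), chr11:117969317-117969616 for Socs3 (minus), chr19:46304487-46304786 for Nfkb2 (plus), chr7:19822706-19823005 for Bcl3 (minus), chr11:53769764-53770063 for Irf1 (plus), chr7:28379179-28379478 for Zfp36 (minus), chr3:142620413-142620712 for Gbp2 (plus) and chr7:128523333-128523632 for Bag3 (plus).
Lif: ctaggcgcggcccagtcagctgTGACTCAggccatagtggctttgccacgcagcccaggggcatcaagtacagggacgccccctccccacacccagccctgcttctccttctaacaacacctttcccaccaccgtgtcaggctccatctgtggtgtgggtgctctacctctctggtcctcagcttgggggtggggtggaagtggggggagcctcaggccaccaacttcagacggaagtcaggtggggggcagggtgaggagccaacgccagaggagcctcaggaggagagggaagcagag
Socs3: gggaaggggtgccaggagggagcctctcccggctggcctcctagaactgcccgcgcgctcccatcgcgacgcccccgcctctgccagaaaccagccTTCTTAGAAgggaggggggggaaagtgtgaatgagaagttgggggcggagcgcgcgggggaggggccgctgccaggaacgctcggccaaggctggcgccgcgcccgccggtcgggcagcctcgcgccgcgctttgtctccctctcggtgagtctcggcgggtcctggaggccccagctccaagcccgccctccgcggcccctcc
Nfkb2: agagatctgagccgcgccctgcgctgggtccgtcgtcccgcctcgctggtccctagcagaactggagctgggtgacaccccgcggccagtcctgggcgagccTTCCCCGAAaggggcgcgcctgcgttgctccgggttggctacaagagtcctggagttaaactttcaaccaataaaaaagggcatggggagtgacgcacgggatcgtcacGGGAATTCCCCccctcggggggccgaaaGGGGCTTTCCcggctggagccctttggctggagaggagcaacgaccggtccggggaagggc
Bcl3: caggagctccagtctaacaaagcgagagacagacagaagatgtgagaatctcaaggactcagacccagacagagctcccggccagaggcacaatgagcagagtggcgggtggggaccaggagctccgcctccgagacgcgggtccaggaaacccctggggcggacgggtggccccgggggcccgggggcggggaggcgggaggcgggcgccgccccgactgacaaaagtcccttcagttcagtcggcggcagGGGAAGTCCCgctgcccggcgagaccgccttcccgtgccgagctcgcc
Irf1: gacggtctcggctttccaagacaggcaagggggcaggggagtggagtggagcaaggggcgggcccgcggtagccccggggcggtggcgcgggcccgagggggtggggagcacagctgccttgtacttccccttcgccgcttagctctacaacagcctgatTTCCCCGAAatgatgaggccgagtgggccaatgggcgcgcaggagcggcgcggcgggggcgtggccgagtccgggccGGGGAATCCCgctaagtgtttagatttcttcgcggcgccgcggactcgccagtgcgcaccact
Zfp36: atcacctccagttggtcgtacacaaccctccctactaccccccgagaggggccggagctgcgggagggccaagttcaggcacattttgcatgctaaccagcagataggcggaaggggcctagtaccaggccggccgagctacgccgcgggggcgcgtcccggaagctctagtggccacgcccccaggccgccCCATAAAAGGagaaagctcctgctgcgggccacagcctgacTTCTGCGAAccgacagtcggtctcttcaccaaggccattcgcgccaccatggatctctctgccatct
Gbp2: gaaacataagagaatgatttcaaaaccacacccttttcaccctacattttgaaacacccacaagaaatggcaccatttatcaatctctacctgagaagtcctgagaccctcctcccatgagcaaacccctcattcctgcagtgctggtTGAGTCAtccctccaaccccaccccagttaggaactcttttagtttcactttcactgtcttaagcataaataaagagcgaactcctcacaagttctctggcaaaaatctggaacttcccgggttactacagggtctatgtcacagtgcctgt
Bag3: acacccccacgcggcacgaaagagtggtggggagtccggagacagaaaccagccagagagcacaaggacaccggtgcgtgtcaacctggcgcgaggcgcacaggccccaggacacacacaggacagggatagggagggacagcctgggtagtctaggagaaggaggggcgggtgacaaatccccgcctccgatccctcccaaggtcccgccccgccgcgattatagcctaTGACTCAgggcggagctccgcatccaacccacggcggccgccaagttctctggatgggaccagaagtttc
Counted from the first base of the window, Lif had an AP-1 match at bases 23 to 29, Gbp2 at 149 to 155 and Bag3 at 231 to 237. Socs3 had a STAT match at bases 97 to 105, Nfkb2 at 103 to 111, Irf1 at 161 to 169 and Zfp36 at 234 to 242. NF-kappaB matches stood in Nfkb2 at bases 212 to 221, 213 to 222 (overlapping the first) and 240 to 249, in Bcl3 at 253 to 262 and in Irf1 at 238 to 247, and Zfp36 also had a CArG box at 193 to 202. Over all 14906 windows of tested genes, 5.09% held the AP-1 motif, 6.70% the STAT motif, 5.29% the NF-kappaB motif and 1.27% a CArG box. Windows could be matched for 219 of the 292 genes with large rises and 81 of the 162 identified ones with large falls, less than the 80% of members set as the minimum for comparing such groups, so their motif shares are not compared. A match describes the letters of the window and says nothing of binding.

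Genes of interleukin-6 family signalling were higher at several levels, from 1 ligand through receptors to the feedback genes. In this list 19 of 24 tested members were higher, 0 lower and 5 did not pass, where 16.9% of all genes were higher and 18.5% lower, with a median log2 fold change of 1.103 against 0.00 over all genes. Lif, the ligand, was read at 51.7, 51.1 and 41.3 CPM at 6h and at 0.428 to 1.11 CPM (median 0.653) in NB. The groups stood far apart in every library (log2 fold change 5.34 ± 0.21, limma adjusted p = 8.68e-13). The other ligands in the table, Ctf1 and Il27, did not pass (log2 -0.01 and 0.28). Of the 6 receptor genes tested, 5 rose. Lifr, the receptor that pairs with gp130 to bind LIF, was read at 185, 180.2 and 162 CPM against 81.0 to 94.4 CPM (median 86.2), about a doubling without overlap (log2 fold change 1.00 ± 0.07, limma adjusted p = 1.96e-09). Il6st, which codes for gp130, rose less (log2 0.68 ± 0.05), Il6ra, the interleukin-6 receptor gene, rose by 1.50, and Osmr, which pairs gp130 with oncostatin M, by 3.51. Cntfr did not pass (log2 0.15).

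Below the receptors, 1 of the 3 kinase genes named here and the transcription factor gene Stat3 rose. Jak2 rose by 0.38 on the log2 scale, and Jak1 (0.11) and Tyk2 (0.15) did not pass. Stat3 was read at 264, 328 and 335 CPM against 64.2 to 72.6 CPM (median 68.2, log2 fold change 2.17 ± 0.07, limma adjusted p = 3.42e-14), with the first 6h library the lowest of the 3 and still far above NB. All 11 feedback and target genes of the list passed as higher. Socs3, the inhibitor that closes this loop at gp130, was read at 29.3, 25.7 and 26.5 CPM against 2.69 to 4.06 CPM (median 3.17, log2 fold change 2.88 ± 0.13, limma adjusted p = 4.89e-12). Its relatives Socs1 (1.87), Cish (1.202) and Socs2 (0.39) rose in that order of size. Timp1, an inhibitor of metalloproteinases, rose by 2.18, and the bZIP factor genes Cebpb and Cebpd by 1.79 and 3.803. Held against A1 and A2 alone, the list had 19 higher and 0 lower.

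**Figure D2:**
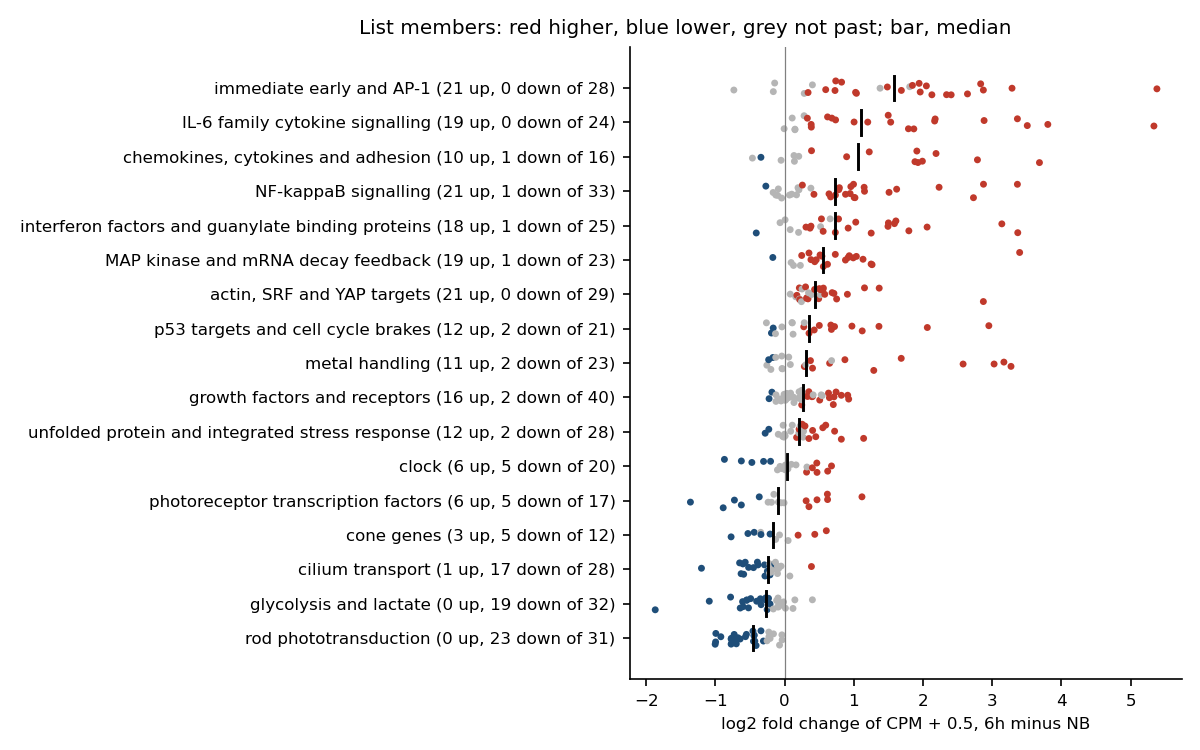
Log2 fold change of CPM + 0.5, 6h minus NB, of each tested member of 17 gene lists; points are genes (red higher, blue lower, grey not past the test) and the black bar is the list's median. Immediate early, interleukin-6 family and chemokine lists lie to the right of 0 with medians of 1.59, 1.103 and 1.06, and rod phototransduction lies to the left with a median of -0.46.

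Immediate early genes and the AP-1 family were higher, and all 9 AP-1 subunit genes in the table passed. In the list 21 of 28 tested members were higher, 0 lower and 7 did not pass, with a median of 1.59. Jun, which forms AP-1 dimers, was read at 318, 289 and 278 CPM against 34.8 to 47.9 CPM (median 40.5, log2 fold change 2.83 ± 0.09, limma adjusted p = 3.42e-14). Fosl1, a Fos-family partner, was read at 18.7, 23.6 and 22.2 CPM and at 0 to 0.0918 CPM (median 0.0166) in NB, where every library had 1 read or none. Its log2 fold change of 5.38 ± 0.15 is understated by the added 0.5. Maff (3.29), a small Maf factor gene, and Atf3 (2.41), a stress-induced partner of Jun, rose as well. Fosl2 was read at 25.8, 24.2 and 26.8 CPM, above the highest NB library at 20.3 CPM.

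NB libraries themselves were spread widely in some immediate early genes. Fos was read at 184, 198 and 214 CPM at 6h, and in NB (A1, A2, B1, B2, B3, B4) at 10.5, 41.9, 16.6, 92.4, 106 and 156 CPM. The groups did not overlap, but the highest NB library came near the lowest 6h library (log2 fold change 2.05 ± 0.64, limma adjusted p = 0.0172). Egr1, a zinc finger factor gene, was read at 214, 282 and 345 CPM at 6h and at 9.78, 73.2, 20.9, 187, 248 and 315 CPM in the same order of NB libraries. Here B3 and B4 lay among the 6h libraries, and the gene did not pass (log2 fold change 1.81 ± 0.81, limma adjusted p = 0.0891). Against A1 and A2 alone, Egr1 passed (log2 3.33, limma adjusted p = 0.0112), and the list had 25 higher and 0 lower. Nr4a1 (0.40), Nr4a2 (-0.16), Egr4 (-0.73) and Btg2 (0.28), also early genes, did not pass. Npas4 and Arc, which neurons switch on with activity, rose by 1.49 and 1.96.

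Brakes on MAP kinases and destabilizers of mRNA rose with the early genes. In the list 19 of 23 tested members were higher, 1 lower and 3 did not pass, with a median of 0.56. Dusp8, a phosphatase of JNK and p38, was read at 414, 421 and 415 CPM against 163 to 187 CPM (median 171, log2 fold change 1.26 ± 0.06, limma adjusted p = 5.89e-12). The ERK phosphatase genes Dusp6 (1.25) and Dusp5 (1.13) rose too, and all 7 Sprouty, Spred and Errfi1 genes passed, led by Spry4 (1.04) and Spry2 (0.93). Dusp1, the early phosphatase gene, did not pass (log2 0.13). Zfp36, whose protein removes AU-rich cytokine mRNAs, was read at 33.7, 28.2 and 22.4 CPM against 0.971 to 3.305 CPM (median 2.40, log2 fold change 3.396 ± 0.23, limma adjusted p = 1.91e-09), and its relatives Zfp36l1 and Zfp36l2 rose by 0.99 and 0.92. The ribonuclease gene Zc3h12a rose by 0.88 and its relative Zc3h12c fell by 0.17.

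All 5 NF-kappaB subunit genes rose, most of all the pair of the non-canonical branch. In the list 21 of 33 tested members were higher, 1 lower and 11 did not pass, with a median of 0.73. Relb was read at 14.4, 12.4 and 12.97 CPM against 0.963 to 1.84 CPM (median 1.38, log2 fold change 2.87 ± 0.15, limma adjusted p = 3.25e-11). Its partner Nfkb2 was read at 16.5, 16.6 and 14.6 CPM against 1.53 to 2.50 CPM (median 1.94, log2 fold change 2.73 ± 0.14, limma adjusted p = 3.25e-11). Rel (0.78), Rela (0.67) and Nfkb1 (0.64) rose less, and Map3k14, which codes for the kinase that starts the non-canonical branch, rose by 1.02 ± 0.08. Bcl3, an inhibitor-like cofactor gene, was read at 6.04, 5.95 and 5.94 CPM and at 0 to 0.199 CPM (median 0.157) in NB, with 3 nearly equal values at 6h.

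The feedback genes of NF-kappaB did not move alike. Nfkbia, the inhibitor gene that NF-kappaB itself switches on, was read at 40.5, 36.9 and 37.6 CPM against 15.2 to 23.3 CPM (median 19.3, log2 fold change 0.96 ± 0.10, limma adjusted p = 3.78e-07). Tnfaip3, which codes for the ubiquitin editor A20, was read at 402, 393 and 374 CPM against 381 to 460.3 CPM (median 417) and did not pass (log2 fold change -0.10 ± 0.11, limma adjusted p = 0.522). Birc3 rose by 1.62, Nfkbie by 1.15 and Tnip2 by 0.73, whereas Tnip1 (0.10) and Nfkbid (0.17) did not pass. Among the receptors and adaptors that feed the pathway, Tnfrsf1a (2.23), Tlr2 (1.51), Myd88 (1.15) and Il1r1 (1.00) rose. Of the kinase complex, Chuk fell by 0.27 and Ikbkb (-0.09) and Ikbkg (-0.13) did not pass.

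Chemokine and adhesion genes rose from very low levels while homeostatic microglial genes did not. In the list of chemokines, cytokines and adhesion molecules 10 of 16 tested members were higher, 1 lower and 5 did not pass, and all 4 CC chemokine genes passed. Ccl2, which draws monocytes, was read at 3.45, 3.17 and 2.69 CPM and at 0 to 0.0918 CPM (median 0) in NB (log2 fold change 2.79 ± 0.24, limma adjusted p = 5.78e-08). Ccl3 (1.99), Ccl4 (1.93), Ccl12 (1.91) and Cxcl10 (1.88) rose by less. Icam1, to which leukocytes adhere, was read at 14.2, 14.8 and 13.7 CPM against 0.529 to 0.918 CPM (median 0.544), and Cd44 and Vcam1 rose by 2.19 and 0.90. Csf1, a growth factor gene for macrophages, rose by 1.22 ± 0.13, and Cxcl16 fell by 0.34.

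Among markers of microglia at rest, 0 of 12 tested members were higher, 3 lower and 9 did not pass. Over all genes 16.9% were higher and 18.5% lower, so the falls of this list stood near that share. Selplg, a selectin ligand gene, was read at 1.09, 0.832 and 0.884 CPM against 2.26 to 2.66 CPM (median 2.46, log2 fold change -1.05 ± 0.20, limma adjusted p = 3.86e-04), and the purine receptor gene P2ry12 fell by 0.72 and the fractalkine receptor gene Cx3cr1 by 0.39. The fall of Cx3cr1 did not pass against A1 and A2 alone, nor without 6h library 1 (-0.38) or 2 (-0.33) or any of B1 to B4 (-0.40 to -0.34), and that of P2ry12 did not pass without 6h library 3 (-0.60). Among macrophage markers, 3 of 9 tested members were higher, 0 lower and 6 did not pass, their sum was 142, 59.1 and 112 CPM against 49.6 to 83.7, and 7 of the 16 had no gene in the table. Gpnmb, which pigment cells also express, made up 88.9, 17.9 and 61.2 CPM of these sums at 6h and 11.8 to 39.3 CPM in NB. Its call was lost without 6h library 1 or 3 and against A1 and A2 alone. Cd68, a lysosomal gene of phagocytes, was read at 5.95, 6.18 and 5.66 CPM against 1.15 to 2.25 CPM (median 1.93). In bulk retina, fewer cells of a type and less RNA per cell cannot be told apart.

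Interferon factor and guanylate binding protein genes were mostly higher, and antiviral genes mostly did not pass. In the first list 18 of 25 tested members were higher, 1 lower and 6 did not pass, with a median of 0.73. Irf1, a transcription factor gene that interferon gamma and cytokines induce, was read at 26.5, 24.5 and 25.1 CPM against 6.14 to 8.09 CPM (median 6.81, log2 fold change 1.80 ± 0.11, limma adjusted p = 6.75e-10). Gbp2, a GTPase gene of cell-autonomous defence, was read at 23.7, 22.9 and 27.4 CPM against 1.36 to 2.97 CPM (median 2.48, log2 fold change 3.14 ± 0.20, limma adjusted p = 9.71e-10). Gbp5 (2.06), Gbp3 (1.59), Irgm1 (1.50) and Gbp7 (1.49) rose too. Gbp genes resemble each other closely and the read counter is not given, so that reads could be split among them.

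In the antiviral list 4 of 18 tested members were higher, 0 lower and 14 did not pass, with Parp14 (1.09) and the RNA sensor gene Ddx58 (1.05) at the top. Ifit1 (0.87) and Isg15 (0.42) did not pass. Against A1 and A2 alone the list had 10 higher and 0 lower. Irf7 did not pass (-0.07), and Ifngr1, a receptor gene, fell by 0.41. Among genes of class I antigen presentation, 6 of 11 tested members were higher, 0 lower and 5 did not pass, with B2m, the light chain gene, at 0.77 and H2-K1 at 0.66. Among complement genes, 7 of 16 tested members were higher, 1 lower and 8 did not pass. C3 was read at 4.998, 5.60 and 7.64 CPM against 1.23 to 2.07 CPM (median 1.77, log2 fold change 1.55 ± 0.22, limma adjusted p = 1.78e-05), and C4b at 26.3, 14.2 and 28.2 CPM against 4.75 to 11.5 CPM (median 7.54), with the second 6h library the lowest of the 3. The C1q genes of microglia did not pass (C1qa, log2 0.18).

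All 5 death receptor genes of the cell death list rose, and its caspase and BCL2 family genes passed in part. In the cell death list 15 of 33 tested members were higher, 1 lower and 17 did not pass. Tnfrsf12a, the receptor gene for TWEAK, was read at 26.2, 26.6 and 25.9 CPM against 2.07 to 2.99 CPM (median 2.42, log2 fold change 3.17 ± 0.14, limma adjusted p = 4.02e-12). Fas was read at 7.997, 6.46 and 7.35 CPM against 0.214 to 0.971 CPM (median 0.457, log2 fold change 2.91 ± 0.21, limma adjusted p = 5.48e-09). Casp1, the inflammasome caspase gene, rose by 1.19, whereas Casp8 (0.36) did not pass. The pro-death genes Bbc3 and Pmaip1 rose by 0.72 and 0.68, and so did the survival gene Mcl1 (0.64). Bax (0.12) and Bcl2l1 (0.06) did not pass, and Xiap, a caspase inhibitor gene, fell by 0.32. Among p53 targets and cell cycle brakes 12 of 21 tested members were higher, 2 lower and 7 did not pass. All 3 Gadd45 genes rose (Gadd45b 2.95, Gadd45a 1.122, Gadd45g 0.97). Cdkn1a, which codes for p21, was read at 11.4, 10.3 and 10.2 CPM against 1.68 to 3.103 CPM (median 2.07, log2 fold change 2.06 ± 0.14, limma adjusted p = 2.87e-09), while Mdm2, the classical p53 target, did not pass (0.11). Ccnd1, which codes for cyclin D1, rose by 0.76, and the proliferation markers Mki67 (0.27) and Top2a (-0.07) did not pass.

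The largest log2 fold change of the metal, NRF2, heat shock and unfolded protein lists was that of Mt2, a metallothionein gene. In the metal list 11 of 23 tested members were higher, 2 lower and 10 did not pass. Mt1 was read at 135, 148 and 176 CPM against 20.6 to 30.2 CPM (median 25.0, log2 fold change 2.58 ± 0.13, limma adjusted p = 4.54e-11) and Mt2 at 97.5, 106 and 126 CPM against 8.89 to 13.7 CPM (median 10.9, log2 fold change 3.27 ± 0.14, limma adjusted p = 2.40e-12). Both were lowest in the first 6h library and highest in the third. Hmox1, which codes for heme oxygenase, followed the same order at 23.7, 35.1 and 39.1 CPM against 2.38 to 3.98 CPM (median 3.74, log2 fold change 3.03 ± 0.19, limma adjusted p = 5.85e-10). The metalloreductase gene Steap4 (3.17), the ferroxidase gene Cp (1.29) and the transferrin gene Trf (0.87) rose, and the iron storage gene Fth1 did not pass (-0.13). Among targets of NRF2, 6 of 23 tested members were higher, 2 lower and 15 did not pass. The shares over all genes were 16.9% higher and 18.5% lower. Osgin1 (2.20) and Txnrd1 (0.76) were higher and Slc7a11 (0.86) did not pass.

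Chaperone and integrated stress response genes rose in part. In the heat shock list 9 of 21 tested members were higher, 2 lower and 10 did not pass. Bag3, a cochaperone gene, was read at 19.4, 20.0 and 17.8 CPM against 2.65 to 4.82 CPM (median 3.96, log2 fold change 2.20 ± 0.15, limma adjusted p = 1.55e-09), and Hsph1 (0.61) and Hspa8 (0.50) rose by less. Hspa1a rose by 0.46 ± 0.14 with 6h libraries at 52.0, 34.1 and 28.7 CPM, the first well above the other two. Among genes of the unfolded protein and integrated stress responses, 12 of 28 tested members were higher, 2 lower and 14 did not pass. Atf4, whose protein drives amino acid genes under stress, was read at 446, 455 and 430.5 CPM against 216 to 280.2 CPM (median 253, log2 fold change 0.82 ± 0.07, limma adjusted p = 4.61e-08). Ppp1r15a, which brings translation back, rose by 1.14, and the amino acid carrier genes Slc3a2 and Slc7a5 by 0.72 and 0.55. The endoplasmic reticulum genes Xbp1 (0.01) and Hspa5 (0.23) did not pass and Pdia4 fell by 0.28.

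Most glial reactivity genes rose, while markers of resting Muller glia, given below, went both ways. Among reactivity markers, 19 of 22 tested members were higher, 0 lower and 3 did not pass, with a median of 1.74, and the markers summed to 1004, 949 and 1251 CPM at 6h against 285 to 427 in NB. Several of these genes are targets of the cytokine pathway above and were chosen with earlier results known. Gfap, the intermediate filament gene, was read at 133, 203 and 226 CPM against 25.8 to 33.1 CPM (median 29.4, log2 fold change 2.61 ± 0.14, limma adjusted p = 4.54e-11). Nes, another filament gene, rose by 1.98, the protease inhibitor gene A2m by 1.98, the transglutaminase gene Tgm2 by 2.03 and Ptx3, a pattern recognition gene, by 1.79. Lgals3 did not pass (-0.10).

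Markers of resting Muller glia were divided, and 4 of 15 tested members were higher, 4 lower and 7 did not pass. Sox9, a factor gene of glial identity, was read at 38.3, 38.4 and 36.6 CPM against 12.6 to 16.02 CPM (median 14.8, log2 fold change 1.32 ± 0.09, limma adjusted p = 1.09e-09). Glul, which codes for glutamine synthetase, was read at 2036, 1821 and 1904 CPM against 2536 to 2812 CPM (median 2703, log2 fold change -0.49 ± 0.07, limma adjusted p = 1.08e-05). The receptor gene Gpr37 fell by 0.65, Kcnj10, the potassium channel gene, rose by 0.24, and Rlbp1 (0.06) and Slc1a3 (0.07) did not pass. Aqp4, the water channel gene, fell by 0.21, a call that was not past against A1 and A2 alone or without 6h library 2 (-0.14) or 3 (-0.20).

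Growth factor and receptor genes rose in part. In their list 16 of 40 tested members were higher, 2 lower and 22 did not pass. Fgf2 (0.93), Edn2 (0.91), Bmp4 (0.82) and Bdnf (0.74) led the ligands, and Fgfr1 (0.71) and the endothelin receptor gene Ednrb (0.70) the receptors. Edn2 did not pass without 6h library 3 (0.77). Vegfa fell by 0.18. Among genes of the BMP and Notch pathways, 9 of 34 tested members were higher, 1 lower and 24 did not pass: Nog, a BMP antagonist, was read at 3.09, 2.85 and 2.69 CPM against 0.346 to 1.07 CPM (median 0.450, log2 fold change 1.70 ± 0.21, limma adjusted p = 3.47e-06), and Hey2, a Notch target, at 32.2, 33.8 and 32.0 CPM against 12.8 to 15.3 CPM (median 14.0, log2 fold change 1.18 ± 0.07, limma adjusted p = 6.75e-10). Hes5, another Notch target, fell by 0.46.

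Most tested members of the actin, SRF and YAP list rose, and most of the matrix and protease list did not pass. In the actin, SRF and YAP list 21 of 29 tested members were higher, 0 lower and 8 did not pass, with Ccn1 at 28.9, 28.3 and 27.1 CPM against 1.78 to 6.74 CPM (median 3.24, log2 fold change 2.87 ± 0.23, limma adjusted p = 1.56e-08) and Tagln2 at 1.37. Among matrix and protease genes, 15 of 35 tested members were higher, 0 lower and 20 did not pass. Adamts1, a metalloproteinase gene, was read at 169, 169 and 166 CPM against 24.1 to 33.3 CPM (median 27.2, log2 fold change 2.59 ± 0.08, limma adjusted p = 3.42e-14), and Plat, the tissue plasminogen activator gene, at 34.8, 34.5 and 34.7 CPM against 8.56 to 10.9 CPM (median 9.80, log2 fold change 1.77 ± 0.12, limma adjusted p = 1.45e-09). Both were nearly equal in the 3 libraries of 6h. Plau, the urokinase gene, rose by 1.63, and collagen genes did not pass (Col1a1 0.21, Col4a1 0.31). Nt5e, which makes adenosine outside the cell, was read at 367, 355 and 324 CPM against 175 to 207 CPM (median 183, log2 fold change 0.89 ± 0.11, limma adjusted p = 3.51e-06), and Ptgs2, the inducible prostaglandin synthase gene, rose by 1.55.

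Rod outer segment transcripts were lower across the cascade, but some of its genes stood near NB. In the phototransduction list 0 of 31 tested members were higher, 23 lower and 8 did not pass, with a median of -0.46. Of its phosphodiesterase and channel genes 5 of 6 fell, as did 9 of 10 structural genes and 4 of 10 genes for shutoff and recovery. Gnb1, a transducin subunit gene that other cells also use, was read at 2475, 2798 and 2663 CPM against 4966 to 5505 CPM (median 5274, log2 fold change -0.99 ± 0.12, limma adjusted p = 3.31e-06). Pde6g, the inhibitory subunit gene of the phosphodiesterase, was read at 961, 1181 and 1142 CPM against 1994 to 2416 CPM (median 2177, log2 fold change -1.002 ± 0.13, limma adjusted p = 5.31e-06).

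Genes of the same protein complex gave different calls. Pde6a fell by 0.76 on the log2 scale with no overlap, while Pde6b, which codes for the other catalytic subunit, was read at 2635, 2978 and 2765 CPM against 2736 to 3064 CPM (median 2966) and did not pass (log2 fold change -0.07 ± 0.13, limma adjusted p = 0.700). Cnga1, the channel's main subunit gene, was read at 432, 500.4 and 475 CPM against 775 to 862 CPM (median 786, log2 fold change -0.77 ± 0.10, limma adjusted p = 6.98e-06), and Cngb1 fell by 0.43. Rcvrn, the calcium sensor gene recoverin, was read at 378, 436 and 406 CPM against 731 to 862 CPM (median 814, log2 fold change -0.996 ± 0.10, limma adjusted p = 5.87e-07). The kinase gene Grk1, which recoverin restrains, was read at 2948, 3203 and 3019 CPM against 2988 to 3266 CPM (median 3120.0) and did not pass (log2 fold change -0.03 ± 0.11, limma adjusted p = 0.838). Sag, the arrestin gene, did not pass either (log2 -0.23, limma adjusted p = 0.176). Whether any pair of these genes differed from each other was not tested. In Gnb1, Pde6g, Cnga1 and Rcvrn the first 6h library was the lowest and the second the highest, as in the rod marker sum (34894, 42747 and 40594 CPM against 58551 to 65517 in NB).

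**Figure D3:**
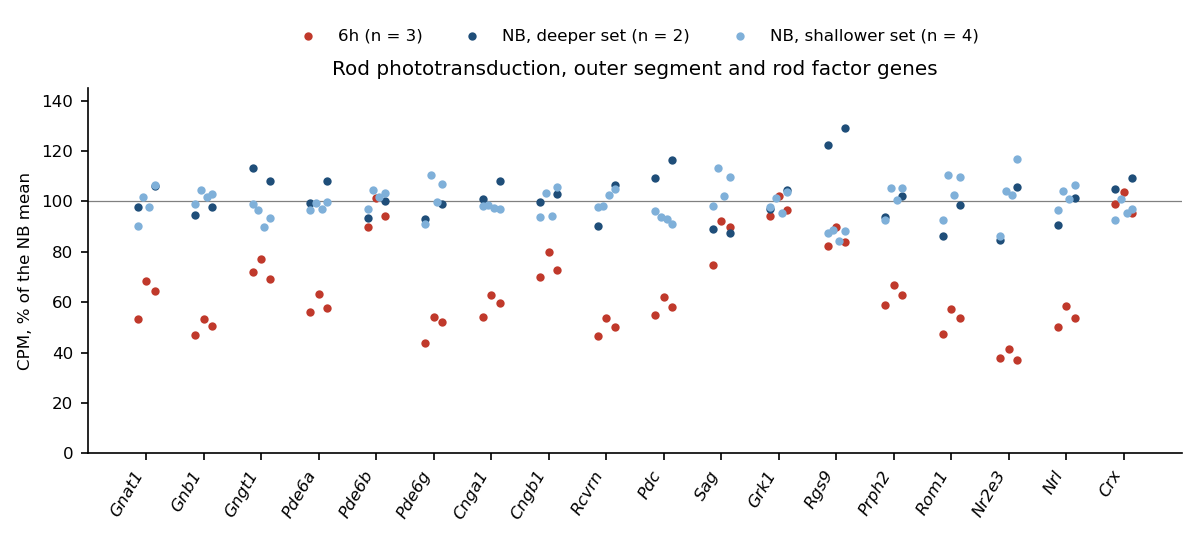
CPM of 18 genes of the rod cascade, outer segment and rod factors as a percentage of the NB mean of each gene, with 1 point for each retina library (red 6h, n = 3; dark blue NB of the deeper set, n = 2; light blue NB of the shallower set, n = 4). The 6h points of Pde6b, Sag, Grk1, Rgs9 and Crx overlap the NB points, and those of the other 13 genes lie below them.

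Rod-fate factor genes fell while the photoreceptor factor Crx did not pass. Among photoreceptor factors, 6 of 17 tested members were higher, 5 lower and 6 did not pass. Nr2e3, the nuclear receptor that keeps rods from cone fate, was read at 213, 232 and 209 CPM against 477 to 659 CPM (median 582, log2 fold change -1.36 ± 0.14, limma adjusted p = 4.77e-07). Nrl, which acts above it, was read at 994, 1159 and 1069.5 CPM against 1800.3 to 2115 CPM (median 2007, log2 fold change -0.89 ± 0.13, limma adjusted p = 2.55e-05). Crx, which both work with, was read at 1265, 1322 and 1219 CPM against 1183 to 1396 CPM (median 1263) and did not pass (log2 fold change -0.01 ± 0.09, limma adjusted p = 0.962). Mef2c (-0.72), Rorb (-0.62) and Otx2 (-0.37) fell. Ahr, the aryl hydrocarbon receptor gene, was read at 132, 153 and 148 CPM against 64.2 to 69.1 CPM (median 66.6, log2 fold change 1.118 ± 0.08, limma adjusted p = 4.87e-09), and Neurod1 (0.62), Casz1 (0.62) and Thrb (0.31) rose. Cone genes went both ways: 3 of 12 tested members were higher, 5 lower and 4 did not pass. Pde6h (-0.77) and Gnat2 (-0.53) fell, Pde6c (0.60) and Cnga3 (0.44) rose, and the cone opsin genes Opn1sw (-0.34) and Opn1mw (-0.13) did not pass. The rise of Cnga3 was not past against A1 and A2 alone.

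Cilium genes, needed to carry proteins into the outer segment, were mostly lower. In their list 1 of 28 tested members were higher, 17 lower and 10 did not pass, with 7 of 8 genes of the BBSome and its chaperone lower. Bbs12, a chaperone gene for BBSome assembly, was read at 13.7, 16.6 and 16.3 CPM against 34.8 to 40.9 CPM (median 35.3, log2 fold change -1.20 ± 0.09, limma adjusted p = 3.92e-09). Ttc8 (-0.65), Bbs1 (-0.63) and Bbs4 (-0.60) fell by less, Bbs5 did not pass (-0.13), and the kinesin gene Kif3b rose by 0.39. At the photoreceptor synapse 2 of 25 tested members were higher, 6 lower and 17 did not pass (2 higher and 10 lower against A1 and A2 alone). Over all genes 16.9% were higher and 18.5% lower. Cplx4 (-0.55) and Lrit2 (-0.50) were lower and Elfn1 (0.87), which links rods to bipolar cells, was higher. Of potassium channel and pump genes, 8 of 19 tested members were higher, 2 lower and 9 did not pass, and Kcnv2, a channel subunit gene of photoreceptors, fell by 0.61.

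Enzymes that clear retinal from photoreceptors did not move together. In the retinoid list 6 of 15 tested members were higher, 3 lower and 6 did not pass. Rdh11, a photoreceptor retinol dehydrogenase gene, was read at 127, 110.1 and 113 CPM against 59.4 to 66.0 CPM (median 62.3, log2 fold change 0.89 ± 0.05, limma adjusted p = 1.79e-10). Rdh12, which serves the same step in inner segments, fell by 0.41, Abca4 fell by 0.77 (limma adjusted p = 9.32e-07) and Rdh8 did not pass (log2 fold change 0.12 ± 0.12, limma adjusted p = 0.493). The rest of the rises of the list, Lrat (1.11), Stra6 (0.84), Rgr (0.81), Rdh5 (0.78) and Rdh10 (0.28), include genes of the retinal pigment epithelium (RPE).

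RPE markers as a whole were higher in the 6h retinas, and their part in the values of those genes was not tested. Of these 16 of 24 tested members were higher, 0 lower and 8 did not pass, with a median of 0.75, and their sum came to 2395, 1883 and 2285 CPM against 1412 to 1676 in NB. Against A1 and A2 alone the RPE markers had 15 higher and 0 lower. Rlbp1 and Trpm1, also listed as markers of Muller glia and of bipolar cells, made up much of the sum. Their retinal means were 500 and 478 CPM at 6h and 482 and 416 CPM in NB. Set beside the RPE libraries of the same group, whose table was scaled separately, the mean retinal level of Rgr was 2.64% of the RPE level in NB and 8.03% at 6h, while its mean in the RPE libraries was 5654 CPM in NB and 3247 CPM at 6h. Ttr went from 2.10% to 5.59%, with RPE means of 7613 and 4820.4 CPM. Kcnj13 went from 3.63% to 13.9% (RPE means 216 and 212 CPM) and Cdh3 from 3.16% to 12.4% (85.2 and 121 CPM). Rpe65, the isomerase gene that defines RPE, went from 2.62% to 6.72%, where its mean in the RPE libraries was 2462 CPM in NB and 944 CPM at 6h. In retina it did not pass (log2 fold change -0.04 ± 0.19, limma adjusted p = 0.896).

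**Figure D4:**
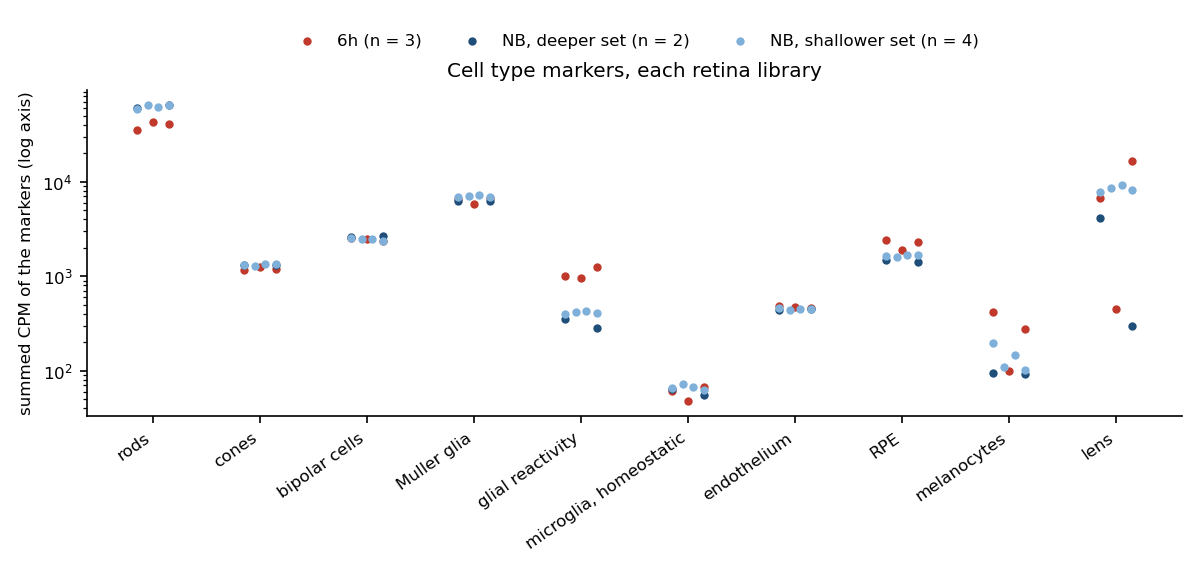
Summed CPM of the markers of 10 cell types on a log axis, with 1 point for each retina library (red 6h, n = 3; dark blue NB of the deeper set, n = 2; light blue NB of the shallower set, n = 4). Rod sums are lower and glial reactivity and RPE sums higher in every 6h library, while lens sums run from 296 to 16551 CPM without order by group.

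Pigment and lens genes varied between libraries of the same group. Melanocyte markers, which RPE shares in part, summed to 421, 99.2 and 276 CPM at 6h against 91.6 to 195 in NB, and 2 of 8 tested members were higher, 1 lower and 5 did not pass. Among genes of at least 10 CPM that rose 2-fold or more, Gpnmb and Dct had the largest spread within 6h, at 88.9, 17.9 and 61.2 CPM and 207, 52.0 and 143 CPM, each with the second library lowest. Both calls, with those of Tyr (log2 0.75) and Krt8 (0.72), were lost when 6h library 1 or 6h library 3 was left out (Dct at 0.82 and 1.09 on the log2 scale, Gpnmb at 0.76 and 1.03, Tyr at 0.40 and 0.69, Krt8 at 0.61 and 0.64). Among lens markers, 0 of 18 tested members were higher, 0 lower and 18 did not pass, by limma as by edgeR and DESeq2, and none had an unadjusted p under 0.05. Mip, a lens channel gene, was read at 165, 5.92 and 381 CPM against 0.963 to 219 CPM (median 198), with the second 6h library and NB A2 the lowest in the sum of lens markers. The part of these cells in the results above was not tested.

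Genes of lactate export and glycolysis were mostly lower. In the list 0 of 32 tested members were higher, 19 lower and 13 did not pass, with a median of -0.26. Slc16a3, which codes for the lactate exporter MCT4, was read at 15.9, 14.1 and 15.2 CPM against 47.4 to 70.7 CPM (median 55.1, log2 fold change -1.87 ± 0.11, limma adjusted p = 2.06e-10). Pfkl, the liver-type phosphofructokinase gene, was read at 254, 274 and 249 CPM against 408 to 479 CPM (median 442, log2 fold change -0.78 ± 0.05, limma adjusted p = 2.65e-09). Of 17 enzyme genes 12 fell, among them Pgam1 (-0.60), Eno1 (-0.55) and Ldha (-0.35), and Hk1 (0.12) and Pfkm (-0.01) did not pass. Nxnl1, the gene of a rod-derived factor that supports glucose uptake by cones, was read at 163, 196 and 189 CPM against 332 to 421 CPM (median 401, log2 fold change -1.09 ± 0.13, limma adjusted p = 4.27e-06).

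Among targets of hypoxia-inducible factors, which share several of those genes, 4 of 27 tested members were higher, 10 lower and 13 did not pass. Ak4, a mitochondrial adenylate kinase gene, fell by 1.46 and the mitophagy gene Bnip3 by 0.68, while Ddit4, also a target of Atf4 and of glucocorticoids, rose by 0.59. Hif1a did not pass (-0.10). Among nuclear genes of oxidative phosphorylation, 0 of 76 tested members were higher, 48 lower and 28 did not pass, by small steps (median -0.19, Ndufa4 -0.49), and 26 of the 76 were lower against A1 and A2 alone. Among mitochondrially encoded genes, 3 of 13 tested members were higher, 0 lower and 10 did not pass. The rises of mt-Co3 (0.36), mt-Atp6 (0.31) and mt-Co2 (0.25) were 0.06, -0.02 and 0.01 against A1 and A2, where none passed. The calls of mt-Atp6 and mt-Co2 were also lost without 6h library 1 (0.29 and 0.22), 6h library 3 (0.28 and 0.22) or any of B1 to B4, and that of mt-Co3 without 6h library 1 (0.32). Among cytosolic ribosomal protein genes, 0 of 76 tested members were higher, 9 lower and 67 did not pass (1 higher and 4 lower against A1 and A2 alone). Against all 6 NB libraries, the calls of this list lay under the shares over all genes, 16.9% higher and 18.5% lower.

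Clock, chromatin, nucleolar and cholesterol genes gave mostly small values. Their counts stand beside 16.9% higher and 18.5% lower over all genes. Among clock genes, 6 of 20 tested members were higher, 5 lower and 9 did not pass: Arntl, which codes for BMAL1, rose by 0.68, and its output genes Ciart and Dbp fell by 0.87 and 0.47. Of chromatin genes 19 of 46 tested members were higher, 9 lower and 18 did not pass, with all 8 acetyltransferase genes higher. Against A1 and A2 alone the chromatin list had 14 higher and 8 lower, with 6 of the 8 acetyltransferase genes higher. Crebbp was read at 124, 126 and 126 CPM against 75.1 to 88.5 CPM (median 78.4, log2 fold change 0.64 ± 0.07, limma adjusted p = 4.19e-07), and Kat6a (0.41) and Ep300 (0.36) rose by less. Sirtuin genes were split, with Sirt1 at 0.25 and Sirt6 at -0.28, and among the Tet genes Tet3 rose by 0.40 and Tet2 fell by 0.45. Among nucleolar genes of ribosome biogenesis, 9 of 29 tested members were higher, 1 lower and 19 did not pass, led by Nop56 (0.50). Among cholesterol genes, 5 of 30 tested members were higher, 5 lower and 20 did not pass. Both of these counts stood near the shares over all genes. Mylip, which degrades the LDL receptor, was at 0.84 and the synthesis gene Mvk at -0.37. Among mouse genes at loci of human age-related macular degeneration, 12 of 23 tested members were higher, 1 lower and 10 did not pass: Timp3 rose by 0.71 and Cfi by 0.66, and Htra1 (0.32) and Apoe (0.08) did not pass.

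Calls against A1 and A2 alone differed for a minority of the genes named above. Aqp4, Cfi, Cnga3, Cx3cr1, Cxcl16, Gpnmb, Hes5, Hspa1a, Sirt1, Sirt6, Tyr, Vegfa, Zc3h12c, mt-Co3, mt-Atp6 and mt-Co2 passed against all 6 NB libraries and not against these 2. Conversely, Bax, Bbs5, Bcl2l1, Btg2, C1qa, Dusp1, Egr1, Hspa5, Htra1, Ifit1, Ikbkb, Nr4a1, Rgs9 and Rlbp1 passed against A1 and A2 and not against all 6. Of these, Egr1 had the largest difference against A1 and A2. Counts of several lists also moved by over 1.5 times in 1 direction there. They became 4 higher and 3 lower for cholesterol genes, 9 higher and 1 lower for NRF2 targets, 9 higher and 0 lower for genes at macular degeneration loci and 21 higher and 3 lower for NF-kappaB signalling. Lists with 1 or 2 members lower had 22 higher and 0 lower (MAP kinase and mRNA decay feedback), 14 higher and 0 lower (growth factors), 12 higher and 0 lower (BMP and Notch), 11 higher and 1 lower (metal), 13 higher and 1 lower (unfolded protein), 11 higher and 0 lower (chemokines) and 11 higher and 0 lower (ribosome biogenesis). Mitochondrially encoded genes had 0 higher and 1 lower.

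Long non-coding RNAs were lower more often than higher. Of 816 such genes matched in the reference, 44 were higher (5.39%) and 255 lower (31.2%), with a median log2 fold change of -0.20. Of 13750 protein-coding genes, 2584 were higher (18.8%) and 2504 lower (18.2%), with a median of 0.01. Their levels differ: the median NB mean was 2.99 CPM for the non-coding and 29.7 CPM for the coding genes. Against A1 and A2 alone, 39 non-coding genes were higher and 266 lower. Of all genes called lower that had a class in the reference, 9.10% were long non-coding, against 1.59% of those called higher and 5.23% of all tested. These shares are given without a test.

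Of the 101 genes that fell 2-fold or more and had a class in the reference, 53 were long non-coding. Only 62.0% of the 163 large falls had such a class, against 97.9% of the 292 large rises and 92.2% of all genes tested. The make-up of all 163 is therefore not known. Gm7616 was read at 2.54, 3.04 and 2.01 CPM against 9.64 to 11.95 CPM (median 10.8, log2 fold change -1.90 ± 0.25, limma adjusted p = 7.02e-06). It lies on chr9:59951296-59952403 on the plus strand and overlaps Nr2e3 on the minus strand, whose own fall is given above. 2810030D12Rik fell by 1.87 and lies 16 bases from Grtp1, which fell by 0.46. B230220B15Rik fell by 1.83, and its nearest tested protein-coding neighbour Smim15, 39805 bases away, fell by 0.29. Gm33843 fell by 1.72 while its nearest tested protein-coding neighbour Btg1, 18256 bases away, rose by 0.34. How the authors' counting used the strand is not given, so reads of Gm7616 and Nr2e3 cannot be told apart. In the other direction, the non-coding 9330188P03Rik was read at 33.3, 35.8 and 31.5 CPM against 1.69 to 3.00 CPM (median 2.03, log2 fold change 3.68 ± 0.14, limma adjusted p = 8.68e-13).

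The later groups place these values in time. Between 6h and 1d 5932 genes differed (35%), and between 6h and 3d 5925 (35%), but the later libraries are all of the shallower set, so that time and depth set cannot be told apart there. On the authors' scale 2969 genes were higher and 2963 lower at 6h than at 1d. Scaling to library totals moved every log2 difference from 1d by -0.13 and from 3d by -0.12, and gave 1836 higher and 5605 lower against 1d, and 2059 and 5231 against 3d in place of 3124 and 2801. Every difference called below from 1d or 3d is larger than that shift.

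Several genes were higher at 6h than at either later time. The mean CPM of Lif was 48.0 ± 5.86 at 6h (SD, n = 3), 0.718 ± 0.266 in the 6 NB libraries, 14.1 ± 4.90 in the 4 of 1d and 2.32 ± 0.579 in the 4 of 3d. Lifr averaged 176 ± 12.2 CPM at 6h and 80.9 ± 8.06 CPM at 1d, beside 87.4 ± 5.54 in NB (log2 6h minus 1d 1.117, limma adjusted p = 1.06e-09). Nt5e averaged 349 ± 22.1 CPM at 6h and 73.0 ± 17.0 CPM at 1d, beside 187 ± 12.6 in NB (log2 6h minus 1d 2.27, limma adjusted p = 5.74e-11). Jun (295 ± 21.1 CPM) was also lower at 1d, at 105 ± 7.16 CPM (limma adjusted p = 8.84e-10), and Atf4 went from 444 ± 12.4 to 306 ± 14.5 CPM (limma adjusted p = 1.93e-05). Slc16a3 was lower at 6h, at 15.1 ± 0.959 CPM against 35.9 ± 3.31 at 1d and 56.9 ± 8.97 in NB (log2 6h minus 1d -1.22, limma adjusted p = 1.28e-07).

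Other genes stood farther from NB at 1d than at 6h. Socs3 averaged 27.1 ± 1.87 CPM at 6h and 68.8 ± 6.58 at 1d (log2 6h minus 1d -1.32, limma adjusted p = 4.89e-07). Gfap averaged 187 ± 48.1 and 527 ± 37.7 CPM and Serpina3n 57.8 ± 13.5 and 392.3 ± 79.6 CPM at the same times (log2 6h minus 1d -1.52 and -2.76). Grk1 averaged 3057 ± 132 CPM at 6h and 1576 ± 332 at 1d (log2 6h minus 1d 0.98, limma adjusted p = 2.24e-06), and Crx 1269 ± 51.6 and 628 ± 103 CPM (limma adjusted p = 8.84e-08). Glul fell further, from 1920.2 ± 108 to 629 ± 35.6 CPM (log2 6h minus 1d 1.61), and Tnfaip3, which did not pass at 6h, averaged 142 ± 33.7 CPM at 1d (limma adjusted p = 1.47e-08). Nr2e3, at 218 ± 12.4 and 208 ± 58.3 CPM, did not pass between the times (limma adjusted p = 0.634).

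**Figure D5:**
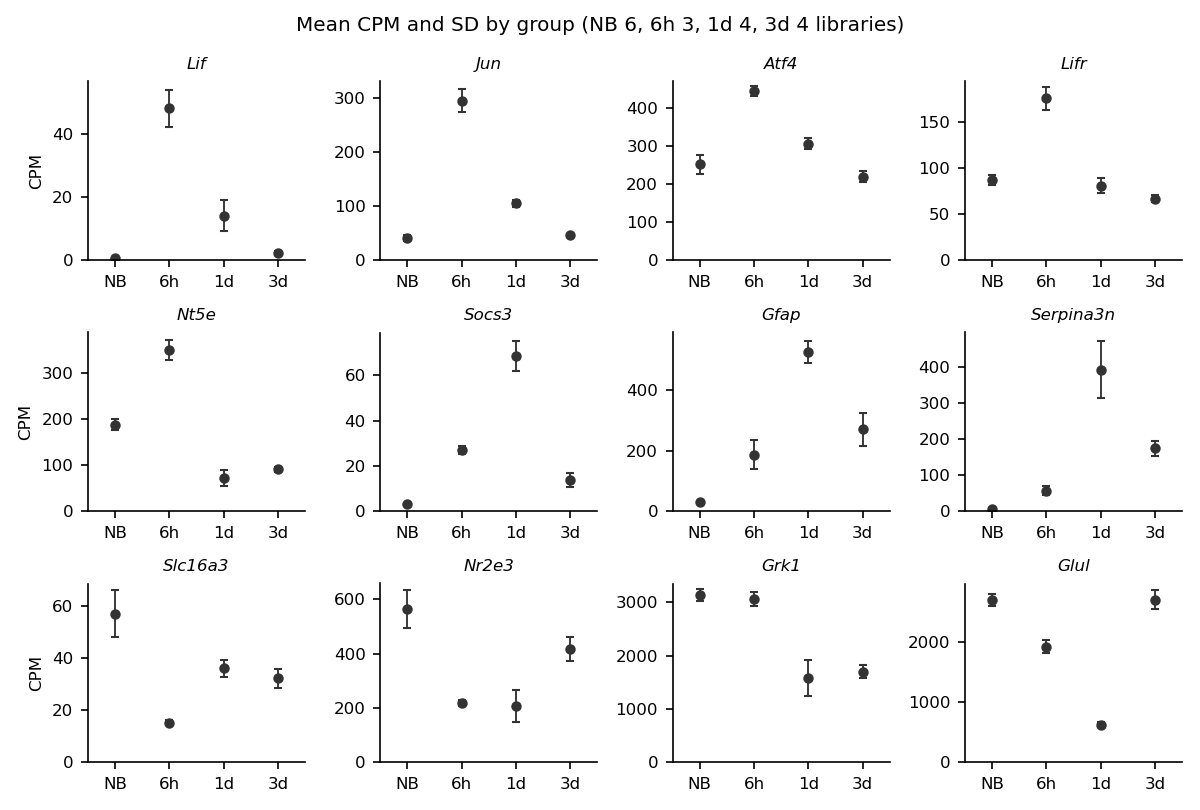
Mean CPM with SD by group for 12 genes in retina (NB n = 6, 6h n = 3, 1d n = 4, 3d n = 4). Lif, Jun, Atf4, Lifr and Nt5e are highest at 6h and Slc16a3 is lowest there, Socs3, Gfap and Serpina3n are highest at 1d, and Grk1 and Glul are lower at 1d than at 6h.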

How the data were processed

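RNA of mouse retina was read in 17 libraries, 3 of 6h, 6 of NB, 4 of 1d and 4 of 3d, each from 1 mouse. The submitters' processing notes name Trimmomatic, STAR, edgeR and GRCm38. Versions and the read counter are not given in the sources used here. The deposited signal values are CPM that the authors had scaled to an effective library size, per the file headers and the column sums, which differ between libraries. Dividing each value by the worth of 1 read in its library gave whole reads in 100% of values (tolerance 0.01 of a read). Retina and RPE tables were normalized separately. Columns of the authors' tables that were not used numbered 4 for retina and 12 for RPE. NB columns match the NB group but no single sample, so A1, A2 and B1 to B4 are names only.

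Tests ran on log2(CPM + 0.5) in limma 3.58.1 (R 4.3.3), in 1 fit of the 17 retina libraries, over 16926 genes with at least 1 CPM in 3 or more libraries. P-values were adjusted by Benjamini and Hochberg at 0.05, and measure the spread between mice. The fit was also run on simulated data with known fold changes in a small part of the genes. That simulation held no shift between depth sets or in cell make-up, so it cannot check the results for these. Results of 6h against NB were recomputed with pseudocounts of 0.1 and 2, without the filter, with TMM scaling or library totals, with edgeR 4.0.16 and DESeq2 1.42.0 on recovered reads, with array weights, a minimum fold of 1.5, thinned reads or the compared groups alone, with the NB libraries of the same depth set, a depth term or a replicate block, and without each library in turn. Comparisons with 1d and 3d had no depth or block setting, and the NB depth sets were compared under fewer settings. Calls against A1 and A2 alone come from a separate fit of the 3 libraries of 6h and these 2, over the same genes. That fit has its own estimate of the spread, so calls can differ for that reason too. Symbols came from the reference annotation, with 6 ids unmatched and 14 symbols shared by several ids.

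Gene lists (38 of pathways and 22 of cell types) and members were chosen with earlier results of these data known. The genes named were the 20 largest rises and 20 largest falls without overlap and with a mean of at least 2 CPM, 5 members of each list by smallest p, all cell type markers, Abca4 and Rdh8, which made 384 genes. Other list members and neighbouring genes are named as examples with their values known. Promoter windows come from RefSeq, and 11 motifs were searched. Values of some list members are not reported here.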

Additional observations from a re-analysis of the deposited data

Results flagged for a closer look

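Of the 384 genes checked, 25 had 1 NB library standing apart from the other 5, where chance sets 1 library apart in about 1 of 20 groups. Library B4 was high in Maff (1.39 CPM), Bdnf (10.4 CPM), Adamts1 (33.3 CPM), Notch1 (42.9 CPM) and Nog (1.07 CPM) and low in Ncl (419 CPM). Library B1 was low in Hmox1 (2.38 CPM) and Isl2 (3.09 CPM) and high in Bbs12 (40.9 CPM) and in the pigment genes Mlana (4.06 CPM) and Pmel (40.7 CPM). Library A2 was high in Mef2c (159.5 CPM) and in the photoreceptor genes Cnga1 (862 CPM), Pde6a (3516 CPM) and Opn1mw (164 CPM). The same library was low in Sox9 (12.6 CPM), Timp3 (119 CPM), Tubb6 (0.564 CPM) and Cdh1 (0.996 CPM). Library A1 was low in B230220B15Rik (79.1 CPM) and Gm15850 (15.0 CPM) and high in the myelin gene Mbp (34.3 CPM). Library B3 was high in Ccl4 by 1 read only (0.0691 CPM), and library B2 was low in Prox1 (181 CPM) and high in the lens gene Crygf (7.90 CPM).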

How the results depend on the processing

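The split of calls between 6h and NB, 2854 higher and 3137 lower, stayed within 1.5 times under every setting run except a minimum fold of 1.5, which left 242 and 111. With that minimum, list members went from 363 higher and 199 lower to 99 and 7, the comparison with 1d to 255 and 199, and that with 3d to 227 and 93. Scaling to library totals gave 3318 and 2533 against NB, 1836 and 5605 against 1d, and 2059 and 5231 against 3d. TMM scaling and the fit without the filter gave the same 2854 and 3137 as the main fit. The filter kept 16926 of 16930 genes and TMM scaling left the authors' scale in place, so neither is a separate check. Between the NB libraries of the 2 depth sets, 139 genes higher and 88 lower became 452 and 276 with DESeq2, and 92 higher with thinned reads.

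Leaving out 1 library gave 2159 to 2861 genes higher and 2352 to 3124 lower against NB, 306 to 360 and 152 to 204 list members, 2378 to 3122 and 2297 to 3075 genes against 1d, and 2590 to 3009 and 2051 to 2519 against 3d. Between the NB depth sets the counts were 159 and 157 without B1, 45 and 26 without B2, 44 and 27 without B3, and 63 and 33 without B4. Without A1 or A2 only 1 library is left in that set, so those counts are not given.

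Against NB of the same depth set, 4442 of the 5991 calls kept their direction and call, and 445 of the 455 that were 2-fold or more. Of the 264 named genes that were called, 23 no longer passed there and 24 with a depth term, and mt-Atp6 turned to -0.024 in both. All libraries of 6h are of the deeper set, so with the depth term each log2 difference is again that from A1 and A2. The depth term is therefore no separate check of these differences. The replicate block over 6h 1, 6h 2, NB A1 and NB A2 gave 3114 higher and 3083 lower, beside 2216 and 2266 without a block in the same 4 libraries, a setting added after seeing the data. Deviations of same-numbered libraries correlated at 0.48 and 0.62, and those of the third 6h library and A1 at 0.32. With 2 pairs the numbers do not establish a pairing. In the block mt-Atp6 was -0.055 and mt-Co2 -0.015, the same as without it (-0.055 and -0.015). Genes that did not pass also changed sign in these 4 libraries, with the same values with and without the block, namely Crybb1 (0.51), Crygs (0.45), Cryaa (0.86), Cryab (0.79), Cryba1 (0.53), Cryba2 (0.78), Crybb2 (0.54), Crybb3 (0.79), Mip (1.47) and Cnp (0.26). The block is balanced over the groups in these 4 libraries and cannot alter a log2 difference. Equal values with and without it were therefore fixed by the design. Depth limits genes near 1 CPM, which had 9 to 15 reads in the shallower libraries.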
